A study of Mus musculus with 2 samples.

Results

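The 7 genes of the NMDA receptor, Grin1, Grin2a, Grin2b, Grin2c, Grin2d, Grin3a and Grin3b, were taken by symbol from the annotation of the deposited tables, and all 7 were found among 55536 annotated genes, of which 22028 code for protein. Total RNA was measured by sequencing, after reduction of ribosomal RNA, in the left cerebral cortex of 2 female mice of the strain B6CASTF1/J, an F1 hybrid supplied by The Jackson Laboratory, at an age of 10 days. The animals carried no treatment or altered allele that the labels name, and they form 1 group, so the data hold no contrast between conditions. The input was 300 ng of RNA per sample, to which ERCC control RNAs were added. The labels number the libraries as biological replicates 1 and 2 and number the females separately, but give both the same donor identifier; the labels do not say whether they were littermates or were processed together. The SD (n = 2 throughout) describes these animals only, and no test was run, since 2 animals cannot give a two-sided exact p below 0.5. Reads were quantified against the mm10 reference, and the 2 parental alleles of the hybrid were not separated.

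NMDA receptors are glutamate-gated cation channels, each a tetramer of subunits. Every receptor holds the obligatory GluN1 subunit (Grin1), which binds the coagonist glycine or D-serine. It is joined by glutamate-binding GluN2 subunits (Grin2a to Grin2d), which set the kinetics, the magnesium block and the cytoplasmic partners of the channel, and in some receptors by glycine-binding GluN3 subunits (Grin3a and Grin3b). In the rodent forebrain GluN2B is prominent early and GluN2A is known to increase after birth. GluN3A is known as a subunit of the young brain that limits calcium entry and the maturation of synapses.

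The 7 subunits share the third transmembrane segment, whose conserved end forms part of the channel gate. The 9 codons around it are shown for 5 of the genes because they let the genes be compared at a functionally fixed site. They were read from the leading annotated coding transcript of each gene (GENCODE M21, assembly mm10), 5′ to 3′ on the coding strand, and capitals mark bases unlike those of Grin1:
Grin1: tcctacactgccaacctggcagccttc
Grin2a: AGTtacacAgccaacctggcTgccttc
Grin2c: AGctacacGgccaaTctggcagccttc
Grin3a: AcAtacacAgcGaacTtggcTgcTGtc
Grin3b: AGTtacacAgccaacctggcagcTGtc
Grin2a and Grin2c differed from Grin1 at 5 and 4 of the 27 bases and encoded the same amino acid at 9 of 9 codons. Grin3b differed at 6 bases and kept the amino acid at 8 codons, and Grin3a differed at 8 bases and kept it at 7. Even in coding sequence, the longest exact run shared by any 2 of the 7 genes was 34 bases, between Grin2b and Grin2c. The deposited tables imply reads of 100 bases, so no such read could match 2 of the subunit genes without mismatch.

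All 100-base words in the annotated transcripts of each gene were sought in transcripts of other genes, read in the same orientation. Antisense overlap was not sought. No word occurred in another gene except in Grin2a, where 1926 of 18022 words (10.7%) also occurred in the processed pseudogene Gm7328 (chr8:56952829-56955053, plus strand). These words span bases 2480 to 4704 of the transcript Grin2a-206, whose last coding base is 4705. Gm7328 was listed at 0.83 TPM in replicate 1 and 0.92 TPM in replicate 2, or 33.0 and 40.2 reads, and how reads were split between the copies was not tested. A gene antisense to Grin1, Grin1os, held 1 read and 2 reads, against 13663 and 15141 for Grin1.

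Grin1, which encodes the subunit present in every NMDA receptor, was listed at 190.48 TPM in replicate 1 and 190.61 TPM in replicate 2 (TPM, a level scaled to transcript length and library size, so that genes can be compared). The libraries were nearly level, but both values lie just above their own deposited credible intervals, 181.1 to 188.6 TPM and 182.0 to 188.9 TPM. The gene (chr2:25291181-25319187, minus strand) ranked 435th and 407th among protein-coding genes. Levels depend on what they are scaled over: over protein-coding genes alone every TPM was 1.88-fold higher in replicate 1 and 1.98-fold higher in replicate 2, which put Grin1 at 367.7 TPM and left the ratios between genes as they were.

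Grin2b, the glutamate-binding subunit of early forebrain receptors, was the highest GluN2 gene at 171.06 TPM in replicate 1 and 149.87 TPM in replicate 2 (160.5 ± 15.0). Replicate 1 was the higher, and the credible intervals of the libraries, 159.2 to 173.6 TPM and 140.1 to 153.0 TPM, did not overlap. Grin2b (chr6:135713233-136173511, minus strand) also drew the most reads of the 7 genes, 49369 and 49736, and its leading transcript is 24060 bases long.

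Grin2a, the subunit that gives faster channel closing, was listed at 63.80 TPM and 62.04 TPM (62.9 ± 1.24), with overlapping credible intervals. Its gene (chr16:9567898-9995560, minus strand) spans 427.7 kb, against 28.0 kb for Grin1. Grin2d, whose receptors close slowly and are weakly blocked by magnesium, was listed at 17.95 TPM and 16.90 TPM (17.4 ± 0.742; chr7:45831883-45878378, minus strand). Grin2c, best known from cerebellar granule cells, was the lowest GluN2 gene at 7.27 TPM and 7.49 TPM (7.38 ± 0.156; chr11:115249169-115267243, minus strand).

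Grin3a was listed at 40.60 TPM in replicate 1 and 34.89 TPM in replicate 2 (37.7 ± 4.04; chr4:49661611-49845744, minus strand), between Grin2a and Grin2d. As for Grin2b, replicate 1 was the higher and the credible intervals did not overlap, at 38.1 to 40.4 TPM and 32.8 to 34.8 TPM. Like those of Grin1, both listed values lie just above their own intervals. The same held outside the NMDA receptor genes, as for the AMPA receptor gene Gria2, listed at 219.91 and 186.15 TPM. The intervals of Gria2 were 208.1 to 216.9 TPM and 176.5 to 183.9 TPM. Grin3b, known mainly from motor neurons, was near the limit of detection at 0.12 TPM and 0.16 TPM (chr10:79970715-79977190, plus strand). Those values rest on 6 reads and 8 reads, with exact 95% Poisson intervals of 2.20 to 13.1 and 3.45 to 15.8 reads that cover counting error only. In bulk RNA, fewer cells of a type and less RNA per cell cannot be told apart, and that holds for every level given here.

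**Figure D1:**
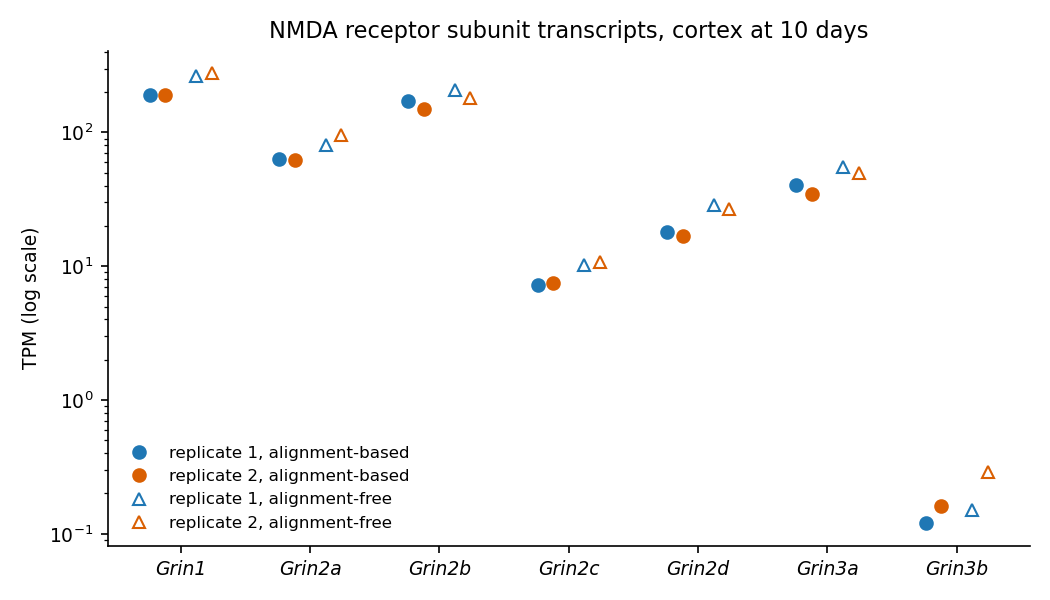
Level of each NMDA receptor subunit gene in TPM (log scale) in replicates 1 and 2, from the alignment-based tables (filled circles) and the alignment-free tables (open triangles). Grin1 and Grin2b stand at the top, at 149.87 to 190.61 TPM in the alignment-based tables, and Grin3b lies at 0.12 and 0.16 TPM.

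The order Grin1, Grin2b, Grin2a, Grin3a, Grin2d, Grin2c, Grin3b held in both libraries and in both the alignment-based and the alignment-free tables. Of the 21 pairs of subunit genes, 20 had a log2 ratio that lay beyond 2 SD of the libraries with the same sign in both. The exception was the top pair, Grin1 over Grin2b, with log2 ratios of 0.16 and 0.35 (0.25 ± 0.136, or 1.19-fold). These neighbours did not differ beyond 2 SD in the alignment-based tables, although their credible intervals did not overlap in either library. The alignment-free tables gave a log2 ratio of 0.47 for this pair, which lay beyond 2 SD.

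Among the other neighbours in the order, Grin2a was 1.67-fold higher than Grin3a (log2 0.74 ± 0.126). Grin3a in turn was 2.15-fold higher than Grin2d, and Grin2d was 2.34-fold higher than Grin2c. The largest step was at the bottom, where Grin2c was listed 31.3-fold above Grin3b, a ratio that rests on the 6 and 8 reads of Grin3b. The ratio of Grin2b to Grin3a was alike in the 2 libraries, at 4.21-fold and 4.29-fold, both of these genes having been listed higher in replicate 1.

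Together the 7 genes came to 491.3 TPM and 462.0 TPM. Grin1 made up 38.8% and 41.3% of that sum (40.0% ± 1.76), Grin2b 33.6% ± 1.68, Grin2a 13.2% ± 0.313 and Grin3a 7.91% ± 0.503. Grin2d and Grin2c made up 3.66% and 1.55%, and Grin3b 0.0295%. The shares of Grin1 and Grin2b thus took up most of the sum in both libraries.

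Within the GluN2 genes, which together came to 260.1 TPM and 236.3 TPM, Grin2b held 65.8% and 63.4% and Grin2a 24.5% and 26.3%. Grin2d held 7.03% ± 0.177 and Grin2c 2.98% ± 0.265. The GluN2 sum was 1.30-fold higher than Grin1 (log2 of Grin1 over the sum −0.45 and −0.31, −0.38 ± 0.0985), in both libraries. When the GluN3 genes were added to the sum, the log2 ratio was −0.58 ± 0.106. The GluN3 genes came to 40.7 TPM and 35.1 TPM, nearly all of it Grin3a. These are ratios of transcripts and give no count of receptor subunits.

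Grin1 transcripts are known to be spliced in several ways, and the sequences of these cassettes are shown because each adds or removes a stretch of protein with known roles. The N1 cassette lies in the extracellular amino-terminal domain and lowers sensitivity to protons and zinc, and the C1 cassette carries a signal for retention in the endoplasmic reticulum. C2 and C2′ are alternative carboxyl ends, of which C2′ promotes export to the cell surface. All are given 5′ to 3′ on the minus strand of chromosome 2 (mm10), as chr2:25311343-25311405 for N1, chr2:25294438-25294548 for C1, chr2:25292368-25292484 for C2 and chr2:25292060-25292128 for C2′. Capitals mark lysine and arginine codons in N1 and C1 and the stop codon in C2 and C2′:
N1: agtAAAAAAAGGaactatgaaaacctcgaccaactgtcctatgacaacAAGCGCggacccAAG
C1: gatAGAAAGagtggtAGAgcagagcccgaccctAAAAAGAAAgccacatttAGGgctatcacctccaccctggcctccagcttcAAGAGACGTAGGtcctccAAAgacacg
C2: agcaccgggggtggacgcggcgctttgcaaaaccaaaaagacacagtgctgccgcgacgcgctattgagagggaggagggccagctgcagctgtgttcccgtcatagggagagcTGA
C2′: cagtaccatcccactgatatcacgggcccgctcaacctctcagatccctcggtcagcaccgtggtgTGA
N1 holds 21 codons, of which 6 code for lysine or arginine, and C1 holds 37 codons, of which 12 do. The acceptors of C2 and C2′ lie 356 bases apart. C2 holds 39 codons with its stop, and C2′ holds 23.

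The 8 full-length coding transcripts of Grin1 in the annotation are the 8 combinations of these choices, and together they held 90.9% ± 1.54 of Grin1 TPM. N1 was held by 14.3% of their TPM in replicate 1 and 19.7% in replicate 2 (17.0% ± 3.84). Most Grin1 transcripts in both animals thus lacked N1. The 4 models with N1 are annotated with a 5′ untranslated region of 209 bases, and those without it with 234 or 301 bases. The part of this difference in the N1 share was not tested. C1 was held by 68.2% and 67.9% (68.0% ± 0.161), and C2, in place of C2′, by 67.4% and 72.2% (69.8% ± 3.41). The alignment-free tables gave 19.8% for N1, 59.7% for C1 and 63.1% for C2, so N1 was the minor form and C1 and C2 the major forms in both.

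**Figure D2:**
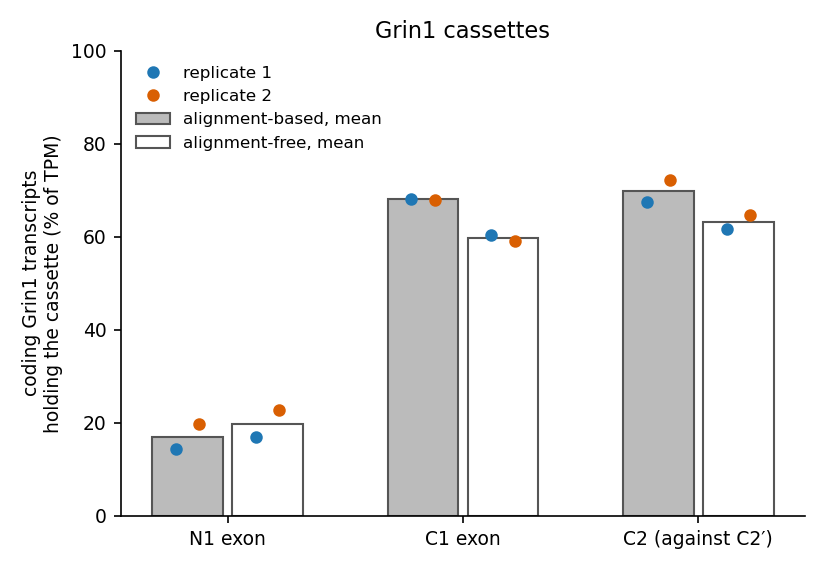
Share of the TPM of full-length coding Grin1 transcripts that holds N1, C1 or C2 (%, from 0 to 100), with bars for the mean of the libraries and points for each library, by quantification. N1 stood at 14.3% and 19.7% in the alignment-based tables, and C1 and C2 stood at 67.4% to 72.2%.

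The combinations were less settled than the single cassettes. Grin1-201, without N1 and with C1 and C2 (938 codons), led with 46.6% and 37.5% of Grin1 TPM, and with 33.1% and 32.0% in the alignment-free tables. Grin1-205, without N1 and C1 and with C2′, was next at 16.7% and 16.3%, and at 24.2% and 25.6% in the alignment-free tables. Grin1-206, without N1 and with C1 and C2′, was listed at 11.5% and 8.85%, and at 5.93% on average in the alignment-free tables. The first and second places by mean went to transcripts without N1 in both quantifications.

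Grin1-204, with N1, C1 and C2, went from 2.09% in replicate 1 to 15.7% in replicate 2, and Grin1-203, with N1 and C2 but without C1, from 9.66% to 2.01%. The share of Grin1-202, which holds C2 alone, was 2.25% in replicate 1 and 11.2% in replicate 2. In the alignment-free tables the same transcripts lay closer together, at 10.4% and 15.1% for Grin1-204, 2.42% and 3.57% for Grin1-203, and 8.12% and 7.81% for Grin1-202. The deposited credible intervals of Grin1-204 overlapped between libraries, at 1.08 to 23.2 TPM and 11.8 to 30.3 TPM. In replicate 1 the listed 18.40 TPM of Grin1-203 lay above its own interval, whose upper bound was 15.4 TPM, and the 4.28 TPM of Grin1-202 lay below its own, 5.48 to 24.7 TPM. Grin1-207, with N1 and C2′ and without C1, was listed at 0 in both libraries and both quantifications. N1 ends 2019 bases before C1 begins in Grin1-204, more than the 100-base reads cover, so which amino-terminal form went with which carboxyl end was not read directly.

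**Figure D3:**
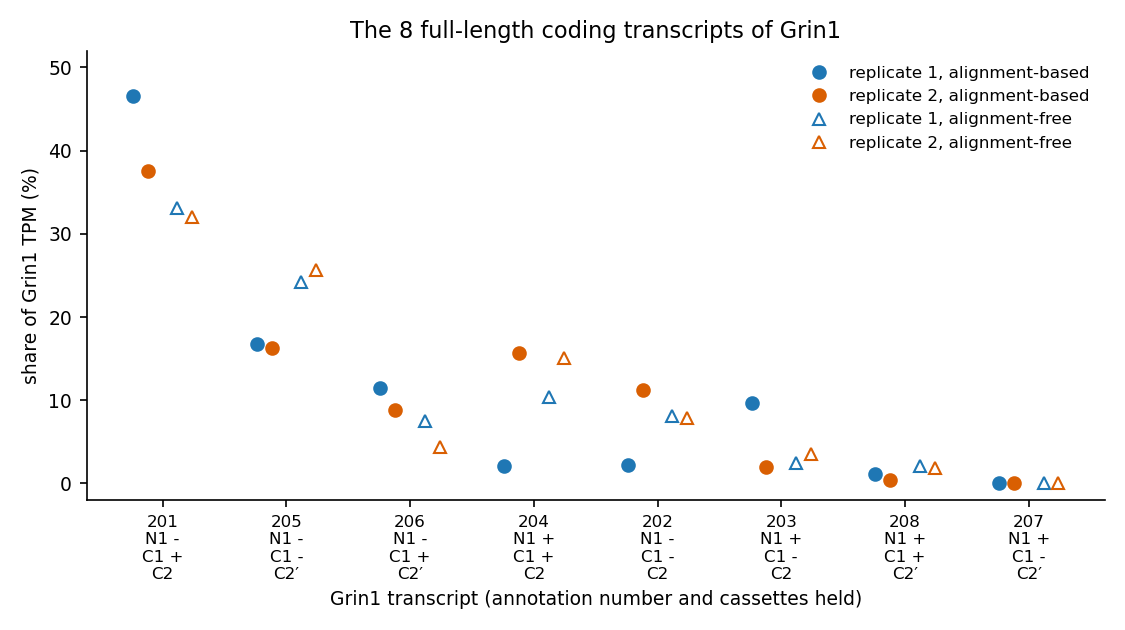
Share of Grin1 TPM (%) of each of the 8 full-length coding transcripts, named by annotation number and by the cassettes held, in both libraries and both quantifications. Grin1-201 was highest throughout (32.0% to 46.6%), while Grin1-204 stood at 2.09% and 15.7% in the alignment-based tables.

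Grin2b TPM came mostly from Grin2b-201, with 58.7% and 61.4% (60.1% ± 1.87) and 91.3% and 90.8% of the gene's reads. This transcript has a 3′ untranslated region of 18865 bases. Grin2b-202 encodes the same 1482 codons with a 3′ untranslated region of 2272 bases, and held 14.9% and 17.9%. The long form was therefore the more abundant in both libraries. The 2 forms with the full reading frame together held 73.7% and 79.3% of Grin2b TPM. The remainder went mainly to short annotated models, of which Grin2b-204 was listed at 7.78% and 10.6% but at 0 in the alignment-free tables, and Grin2b-206 was listed at 7.51% and 5.25%, and at 17.0% and 5.05% in the alignment-free tables. The credible interval of Grin2b-206 in replicate 1 ran up to 22.1 TPM from a lower bound near 0. Grin2b-205, which ends after 337 codons, held 5.41% and 3.32%, and 1.87% on average in the alignment-free tables.

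Grin2a-206, with a 3′ untranslated region of 9929 bases, held 52.9% and 56.7% of Grin2a TPM (54.8% ± 2.71) and 82.9% and 83.1% of the gene's reads. Grin2a-202, which has the same 1464 codons and a 3′ untranslated region of 86 bases, held 13.8% and 23.9%, and Grin2a-201, annotated by its coding part alone, held 9.22% and 0.322%. These coding forms together held 75.8% and 80.9%. Of the other transcripts, Grin2a-204, a retained intron, held 10.5% and 11.4%, Grin2a-203, also a retained intron, 8.62% and 3.61%, and the noncoding Grin2a-205 5.02% and 4.08%. Several of these splits were not shared by the alignment-free tables, which gave 27.2% and 26.5% for Grin2a-202, 10.9% on average for Grin2a-205, at most 0.377% for Grin2a-203 and less still for Grin2a-201. Grin2a-206 stood at 51.8% on average there. Long 3′ untranslated regions thus marked the leading transcripts of both Grin2a and Grin2b, against 3615 bases in Grin3a-201, 1187 in Grin1-201, 897 in Grin2d-201 and 402 in Grin2c-201.

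Grin2c-201 held 61.3% and 60.6% of Grin2c TPM and Grin2c-202 the rest, and the 2 forms encode the same 1239 codons but differ in the length of the 5′ untranslated region, 157 and 773 bases. Grin2d-201 held 61.0% and 62.4% of Grin2d TPM, Grin2d-203 30.4% and 34.1%, and the incomplete Grin2d-202 8.58% and 3.55%. In the alignment-free tables Grin2d-202 was higher, at 22.0% and 12.2%. In coding sequence the 2 low GluN2 genes were the richer in G and C, at 67.3% for Grin2d and 62.4% for Grin2c, against 52.9% for Grin2b and 50.8% for Grin2a. The part of base composition in the levels was not tested.

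Grin3a has a long form with an insert in the cytoplasmic tail, shown because the form that holds it was measured in both animals. The 60 bases, at chr4:49665566-49665625 on the minus strand (mm10), are held by Grin3a-202 and lacked by Grin3a-201, and capitals mark the 4 lysine and arginine codons:
Grin3a insert: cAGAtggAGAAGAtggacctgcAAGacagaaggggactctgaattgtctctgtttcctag
Grin3a-201, of 1115 codons, held 64.4% and 66.8% of Grin3a TPM (65.6% ± 1.66). Grin3a-202, of 1135 codons, held 22.8% and 20.4% (21.6% ± 1.70), and 20.2% on average in the alignment-free tables. The form without the insert was the higher in both libraries and both quantifications. The noncoding Grin3a-203 held 12.2% and 12.5%. For Grin3b, Grin3b-201 held 81.8% and 56.3% of TPM, and Grin3b-202 and Grin3b-203 were each listed at 0 in 1 of the libraries. These shares rest on 6 and 8 reads.

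Between the animals, the counts of the 6 subunit genes with a mean of at least 100 reads were compared after TMM scaling (edgeR). Genes were called apart where the higher library exceeded the lower by 25% or more. None of the 6 was apart, where 849 of 12689 genes (6.69%) were, 2.78% higher and 3.91% lower in replicate 2, so that 0 of 6 is near the background. The median size of the log2 ratio was 0.119 for the 6 genes and 0.0904 for all 12689. In the size of this ratio, whatever its direction, Grin2b lay below the median gene, Grin2d at it and the other 4 above it.

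The log2 ratio of replicate 2 over replicate 1 was −0.10 for Grin3a by TMM and −0.22 by deposited TPM, so that Grin3a was lower in replicate 2 by both scalings. Grin2c was listed higher by both, at 0.16 and 0.04. Its counting interval alone reaches 0.158 to either side, so the first value lies at the edge of counting error and the second within it. The direction of Grin2a flipped, from 0.17 by TMM to −0.04 by TPM, as did that of Grin2d, from 0.09 to −0.09, and Grin1 went from 0.13 to 0.00. Grin2b lay at −0.00 by TMM, 0.01 by DESeq2 size factors and −0.19 by TPM. The median of all 12689 genes was 0.02 by TMM and −0.10 by TPM, and these differences between animals are to be read against that shift.

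Of the cell types checked by fixed marker lists, all 4 markers of glutamatergic neurons, of GABAergic interneurons and of astrocytes were at 1 TPM or more in both libraries. Their summed levels were 690.7 and 689.4 TPM, 287.4 and 262.2 TPM, and 316.1 and 302.3 TPM. Among all protein-coding genes, 59.1% were at 1 TPM or more in both libraries. The oligodendrocyte markers Mbp, Mog and Mag were each 25% or more higher in replicate 2, at 90.02 and 180.83 TPM, 1.83 and 4.53 TPM, and 13.34 and 30.01 TPM. Of 4 markers of the striatum, Drd2 and Ppp1r1b were apart by TMM, with the lower value in replicate 2 (sums 46.9 and 34.6 TPM). Of 4 cerebellar granule cell markers, a check that bears on Grin2c, only Cbln1 passed 1 TPM (14.8 ± 0.424), and Gabra6 held 0 reads and 6 reads. The part of these differences in the levels of the subunit genes was not tested.

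Beside the AMPA and kainate receptors, 6 of the 7 NMDA receptor genes were at 1 TPM or more in both libraries, as were 13016 of 22028 protein-coding genes (59.1%). The median of all 7 NMDA receptor genes, Grin3b included, stood at 37.7 ± 4.04 TPM, against 3.89 TPM for all protein-coding genes. Protein-coding genes at 1 TPM or more in both libraries had a median of 16.5 TPM. All 4 AMPA receptor genes, which carry fast transmission, passed 1 TPM, with a median of 78.8 ± 11.7 TPM, from Gria4 at 39.2 TPM to Gria2, whose edited form limits calcium entry, at 203 TPM. All 5 kainate receptor genes passed, with a median of 27.1 ± 0.990 TPM, from Grik4 at 7.82 TPM to Grik5 at 109 TPM. Grin1 thus lay close to Gria2, and the spread among the NMDA receptor genes, from 0.14 to 190.5 TPM, was the widest of the 3 families.

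In sum of levels, the NMDA receptor genes came to 491.3 and 462.0 TPM and the AMPA receptor genes to 436.4 and 363.3 TPM. By TMM-scaled counts, 3 of 5 kainate receptor genes were 25% or more apart between the animals, against 0 of 6 NMDA and 0 of 4 AMPA receptor genes. Over all genes with a mean of at least 100 reads the share was 6.69%, so that 0 among so few genes is near the background. Grik1 was listed at 17.32 and 11.96 TPM and Grik2 at 38.86 and 26.41 TPM, both lower in replicate 2, and Grik4 at 7.14 and 8.49 TPM, higher in replicate 2. In deposited TPM Grik4 was less than 25% apart, while the AMPA receptor gene Gria1 was listed at 108.0 and 85.60 TPM, more than 25% apart.

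**Figure D4:**
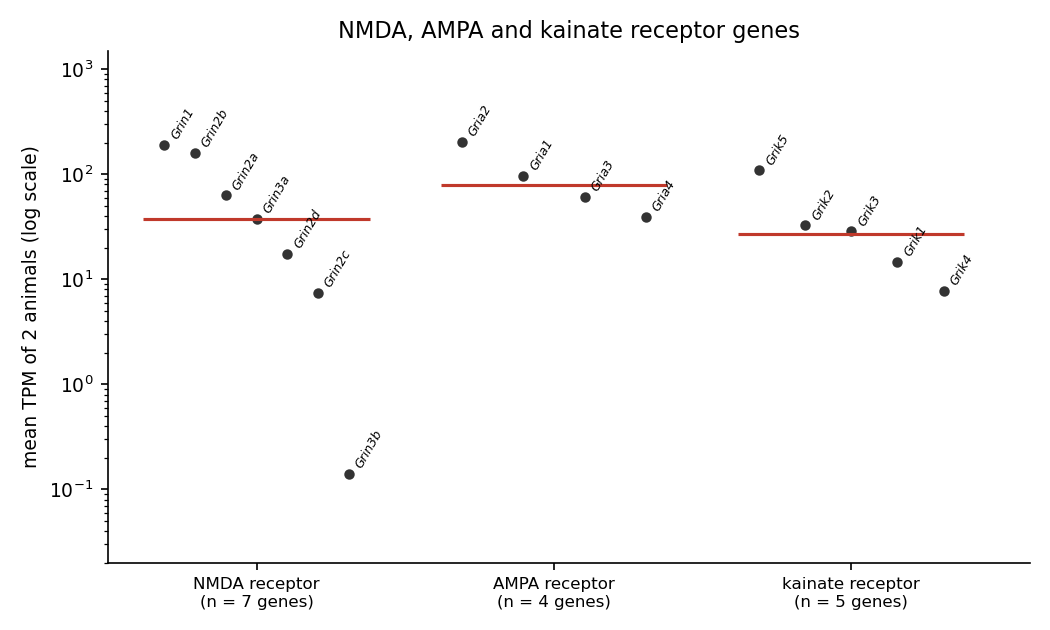
Mean TPM of the 2 libraries (log scale) for each gene of the NMDA, AMPA and kainate receptor families, with a red line at the family median averaged over the libraries. The NMDA receptor genes run from Grin3b at 0.14 TPM to Grin1 at 190.5 TPM, and the AMPA receptor genes from 39.2 to 203 TPM.

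The genes that serve the receptor were described from 3 lists. Of 11 genes that make, move or degrade the coagonists, 9 were at 1 TPM or more in both libraries. The share of all protein-coding genes at that level was 59.1%. The 11 genes had a median of 20.2 ± 0.177 TPM. Srr, the serine racemase that makes D-serine, was highest at 49.29 and 46.56 TPM. Those under 1 TPM were Slc6a5, the neuronal glycine transporter of the hindbrain and spinal cord (0.05 and 0.04 TPM), and Dao, which degrades D-serine, with 0 reads in replicate 1 and 1 read in replicate 2. Slc6a9, the glycine transporter that keeps synaptic glycine low, was listed at 20.05 and 20.30 TPM. Srr thus stood above Grin3a in both libraries, and Slc6a9 above Grin2d.

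All 11 genes for scaffold and transport proteins were at 1 TPM or more, against 59.1% of all protein-coding genes. The 11 genes had a median of 72.3 ± 3.69 TPM. Dlg4, which encodes PSD-95, the scaffold that binds the tails of GluN2 subunits, was highest at 429.48 and 455.74 TPM, and Kif17, a motor that carries GluN2B, lowest at 7.44 and 7.38 TPM. All 7 kinase and phosphatase genes passed, with a median of 71.8 ± 1.69 TPM, from Src, which phosphorylates GluN2 tails, at 39.5 TPM to Camk2a, a kinase that binds GluN2B, at 507 TPM. None of these partner genes with a mean of at least 100 reads was 25% or more apart between the animals by TMM. The genes compared numbered 8 for coagonist supply, 11 for scaffold and transport proteins and 7 for kinases and phosphatases. Among all genes with a mean of at least 100 reads, 6.69% were apart, so none among so few partner genes is near the background.

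**Figure D5:**
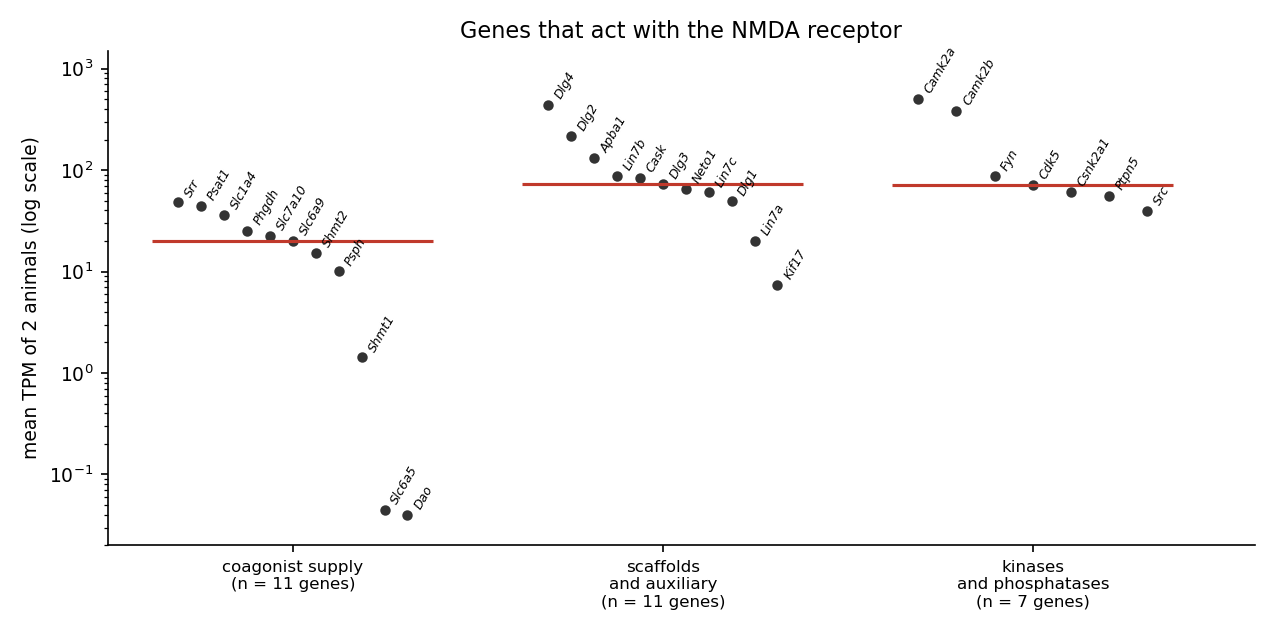
Mean TPM of the 2 libraries (log scale) for genes that act with the NMDA receptor, in 3 lists, with a red line at each list's median averaged over the libraries. Dlg4 and Camk2a stand highest, at 443 and 507 TPM, and Slc6a5 and Dao lie below 0.1 TPM.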

How the data were processed

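Total RNA of 2 left cortices was sequenced, with 29867112 reads assigned to genes for replicate 1 and 31031340 for replicate 2. The deposited README files state that the authors obtained the expected counts and TPM of genes and transcripts by aligning reads to the mm10 transcriptome (annotation M21). The alignment-free estimated counts and TPM were obtained by the authors from the reads without alignment, per the same files. The bounds of the credible intervals (a signal on the TPM scale) are deposited values, with a level not given in the sources used here. The tools are also unnamed there, although the columns are those of RSEM and kallisto.

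All 55536 genes matched GENCODE M21, from which coordinates and sequences were read (counted from 1). Alignment-free values were summed per gene. Pair ratios used TPM + 0.1. Expected counts were rounded to whole numbers, scaled by TMM (edgeR 4.0.16; DESeq2 1.42.0 size factors as an alternative) and compared after adding 0.5, over genes with a mean of 100 reads or more. Libraries that differed by 25% or more of the lower value were called apart; there was no test. This step was tested on simulated data. Python 3.11.15, R 4.3.3, pandas 2.3.3 and numpy 2.4.6 were used.

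All 7 subunit genes were named, transcripts were named at 5% or more of their gene's TPM in either library, and of each list the highest and lowest member, members under 1 TPM and members apart between libraries were named. Slc6a9, Dlg4 and marker genes were further named for their role. Some genes and sequences, and the lists that rest on them, are not reported here. The members and lists were chosen with earlier results of these data known.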

Additional observations from a re-analysis of the deposited data

How the results depend on the processing

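No paired analysis was possible because the study has 1 group. Of 251 values under alternatives other than a single library alone, 120 stayed within 1 SD of the libraries, within 1.5 times a count or, for ratios between the animals, within the counting interval, and 131 moved further. Of the 158 values of a single library, those set against the SD lie within it by construction where n = 2 and say nothing of stability. Rescaling over protein-coding genes moved all 7 subunit levels (Grin1 to 367.7 TPM). None of the 154 values of 22 pair ratios reversed in sign, but not all of them could have. A change of pseudocount cannot alter the sign, and the single libraries only repeat the order already given for both. Only the alignment-free, protein-coding and full-length values bear on the sign. The small ratios of replicate 2 over replicate 1 did change sign for Grin2a and Grin2d by deposited TPM (log2 −0.04 and −0.09) and for Grin2b by DESeq2 size factors (0.01) and in the alignment-free tables (0.03). In the alignment-free tables the log2 ratio of Grin1 over Grin2b was 0.47 in place of 0.25, that of Grin2a over Grin2b −1.13 in place of −1.35, and that of Grin1 over the GluN2 sum −0.25 in place of −0.38, while C1 fell to 59.7% and C2 to 63.1%. With protein-coding transcripts only, Grin2a over Grin2b was −1.69. With full-length reading frames only, an alternative chosen after seeing the data, Grin1 over Grin2b was 0.50 and Grin1 over the GluN2 sum −0.17. The count of genes apart between animals, 849 of 12689 (6.69%) at a mean of 100 reads, was 2575 of 16467 (15.6%) at a mean of 20 reads. With no minimum it was 11907 of 55536 (21.4%), where 1 of 7 subunit genes (Grin3b) was apart, which is no excess over that share. Of the 12689 genes, 1700 (13.4%) were apart by deposited TPM and 218 (1.72%) at 1.5-fold. Depth limits Grin3b, with 6 and 8 reads, and counting intervals leave out differences between animals.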
